A study of Mus musculus with 6 samples.

Results

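The 10 genes described here are mouse enzymes that lengthen or desaturate fatty acids: 6 elongases (*Elovl1*, *Elovl2*, *Elovl3*, *Elovl5*, *Elovl6* and *Elovl7*) and 4 desaturases (*Fads1*, *Fads2*, *Fads3* and *Scd2*). They were chosen by gene symbol from the 25403 genes listed in the count table, each symbol matched 1 row, and all 10 were among the 14496 genes that passed the filter on low counts. The study asked what loss of *Themis*, a signalling adaptor best known from developing T cells, does to the liver in metabolic dysfunction-associated steatohepatitis (MASH). Poly(A) RNA of whole liver was sequenced from 3 wild-type C57BL6/J mice (WT) and 3 mice with *Themis* deleted in the whole body (*Themis*-KO), so that the deletion is not limited to hepatocytes. Mice of both groups were put on a MASH diet at 10 to 12 weeks of age and ate it for 3 months, with fat at 40 kcal%, fructose at 20 kcal% and 2% of cholesterol. The knockout line came from another laboratory and WT C57BL6/J mice from a vendor. The study speaks of WT and *Themis*-KO littermates for chow-fed mice of this line and does not repeat the word for the mice on the MASH diet. All 6 livers carried a male pattern, with 768 to 1150 counts of the Y-linked gene *Ddx3y* and 1 to 8 counts of *Xist* per liver.

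Fatty acids leave fatty acid synthase as palmitate. Elongases of the endoplasmic reticulum catalyse the first and rate-limiting step that adds a further pair of carbons, and a ketoreductase, a dehydratase and an enoyl reductase shared by all elongases finish each cycle. Desaturases insert double bonds with electrons from cytochrome b5, and the alternation of both enzyme classes makes oleate from stearate and arachidonate and docosahexaenoate (DHA) from dietary precursors. Several of these genes are targets of SREBP-1c, the sterol-regulated factor that drives hepatic lipogenesis. *Elovl3*, which acts on saturated and monounsaturated chains, is known for control by the circadian clock, sex hormones and PPAR signalling.

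The 6 elongases carry the same metal-binding signature, a histidine box in which 2 residues separate the first histidine from a histidine pair. The coding sequence around it is shown because it sets *Elovl3* beside its closest relative at this site. Each line gives 27 bases of the GENCODE M21 transcript, read 5′ to 3′ on the coding strand, with the histidine codons in capitals.
Elovl1: ttcctcCATgtcttcCACCACtcggtg
Elovl2: ttccttCATgtctatCACCACgcgtcc
Elovl3: tttgtcCACtggtacCACCACagcaca
Elovl5: gtgctcCATgtctacCACCACgctacc
Elovl6: ttcctgCACtggtacCACCACatcact
Elovl7: ttccttCATgtcttcCATCATacgatc
Over the 15 bases from the first to the last histidine codon, *Elovl6* was identical to *Elovl3* at all 15, *Elovl5* at 11, *Elovl1* and *Elovl2* at 10 and *Elovl7* at 8. The *Elovl3* box begins at codon 146 of 271 and lies in coding exon 4 (GRCm38 chr19:46134416-46134442, forward strand). The *Elovl6* box begins at codon 141 of 267, also in exon 4 (chr3:129633101-129633127, forward strand). How these near relatives differed between the genotypes was measured directly, by their ratio within each liver.

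Total counts were between 20679642 and 25649767 per liver, and the members took 0.367 to 0.504% of them. Levels are given as counts scaled to a common library size by TMM (CPM), differences as the log2 fold change of *Themis*-KO minus WT from edgeR's quasi-likelihood test, and p-values are adjusted by Benjamini-Hochberg over all 14496 genes tested. A gene is called at an adjusted p under 0.05. *Themis* itself did not separate the groups: it had 8.07, 25.6 and 12.0 CPM in the 3 WT livers and 8.63, 7.74 and 9.97 CPM in the 3 livers labelled *Themis*-KO (log2 fold change −0.79 ± 0.38 SE, edgeR adjusted p = 0.199). Gene-level counts do not show whether these reads cover the deleted part, and all statements on *Themis*-KO livers below rest on the labels. The WT livers were not uniform either. The near-copy *Gm28438* of the mitochondrial gene *mt-Nd3* took 96.6 and 96.8% of the CPM of that pair in WT 1 and WT 2 but 2.2 to 3.26% in WT 3 and the 3 *Themis*-KO livers. Results were therefore also fitted with this mitochondrial split as a covariate, which leaves WT 3 as the only WT liver that bears on the genotype difference.

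Of the 10 members, 4 were called: *Elovl7* and *Scd2* were higher and *Elovl3* and *Elovl2* lower in *Themis*-KO livers. Over all genes tested, 9.11% were called, 4.97% as higher and 4.14% as lower. In 5 of 10 members the livers of the groups did not overlap, which was so for 34.6% of all genes. The median log2 fold change over all genes was 0.0095. The remaining 6 members, among them *Elovl5*, *Elovl6* and the 3 Fads genes, were not called, and each of those intervals includes 0.

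**Figure D1:**
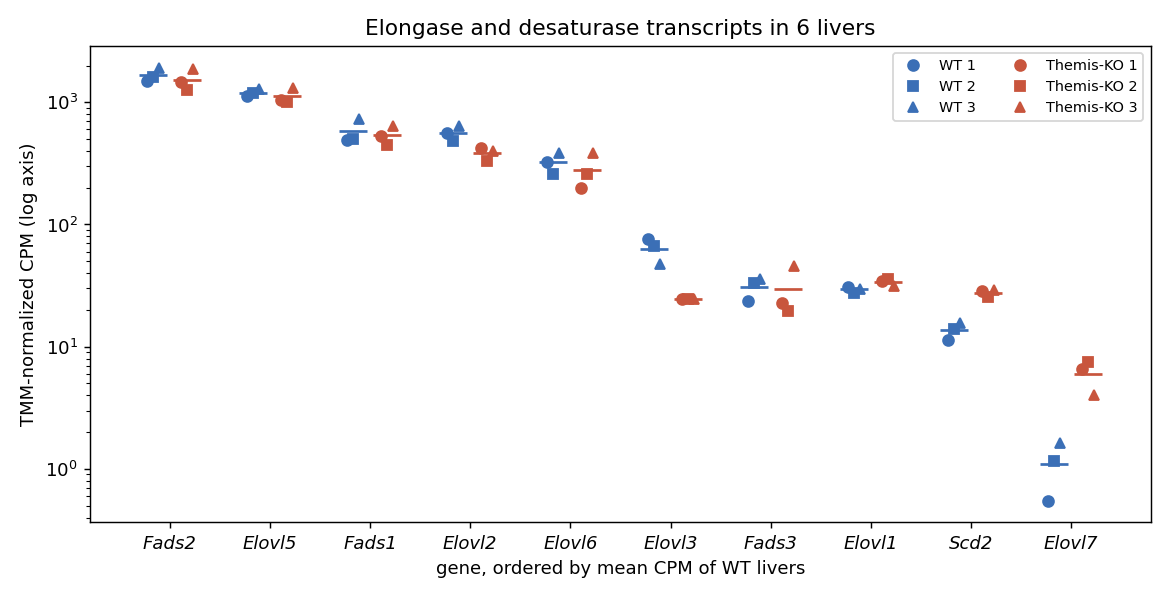
TMM-normalized CPM (log axis) of the 10 members in each liver, WT in blue and Themis-KO in red, with symbols for replicates 1 to 3 and a bar at each group mean; genes are ordered by their WT mean. The 3 Themis-KO points of *Elovl3* lie on top of each other at about 24.6 CPM below all WT points, while those of *Scd2* and *Elovl7* lie above all WT points.

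*Elovl3* (ENSMUSG00000038754, GRCm38 chr19:46131897-46135694, forward strand) had 76.5, 66.3 and 47.9 CPM in WT livers and 24.4, 24.7 and 24.6 CPM in *Themis*-KO livers. Every *Themis*-KO liver was below every WT liver, and WT 3 was the WT liver nearest to them. The mean fell from 63.6 ± 14.5 to 24.6 ± 0.172 CPM (SD, n = 3 each), a log2 fold change of −1.37 ± 0.16 SE (95% interval −1.74 to −0.996, edgeR adjusted p = 0.0104). The counts behind these values were 1667, 1382 and 1215 in WT and 574, 575 and 521 in *Themis*-KO livers. The spread among *Themis*-KO livers (coefficient of variation 0.70%) was smaller than counting alone gives at this depth (4.24%), so their near equality is closer than the method can resolve. Among WT livers the coefficient was 22.7%, against 2.65% from counting. With the mitochondrial split as a covariate the log2 fold change was −0.96 ± 0.12 SE and was no longer called (adjusted p = 0.123), and without *Themis*-KO 1 the adjusted p was 0.0540 at an unmoved −1.37.

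The other elongases took different courses. *Elovl2*, which extends the long polyunsaturated precursors of DHA, had 562, 485 and 637 CPM in WT and 422, 330 and 399 CPM in *Themis*-KO livers. The groups did not overlap, and WT 2 was the WT liver nearest to the *Themis*-KO livers. Its log2 fold change was −0.55 ± 0.14 SE (95% interval −0.86 to −0.23), and it was called by a narrow margin (edgeR adjusted p = 0.0466). The call held in 1 of the 6 fits that leave out a liver, the one without *Themis*-KO 3. *Elovl7*, which is known to act on saturated long chains, went the other way. It had only 12, 24 and 41 counts in WT livers against 156, 173 and 85 in *Themis*-KO livers, or 0.550, 1.15 and 1.62 against 6.63, 7.44 and 4.01 CPM. The groups were apart, and the coefficient of variation among WT livers was 48.4%, of which counting gives 19.7%. The fold was 5.37 (log2 fold change 2.43 ± 0.38 SE, 95% interval 1.55 to 3.31, edgeR adjusted p = 0.0194), and it was called in 2 of the 6 fits without 1 liver, those without WT 3 or *Themis*-KO 3.

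*Elovl1*, the elongase of saturated very long chains for sphingolipids, had 31.1, 27.6 and 29.6 CPM in WT and 34.5, 35.8 and 31.4 CPM in *Themis*-KO livers. All *Themis*-KO livers were above all WT livers, but the step was small and not called (log2 fold change 0.20 ± 0.09 SE, 95% interval −0.0061 to 0.41, edgeR adjusted p = 0.171). *Elovl5*, the abundant elongase of the first polyunsaturated steps, had 1116, 1201 and 1288 CPM in WT and 1046, 1014 and 1318 CPM in *Themis*-KO livers. The highest liver was a *Themis*-KO liver and so were the 2 lowest, and the log2 fold change of −0.094 (95% interval −0.39 to 0.20, edgeR adjusted p = 0.642) excludes a change of the size seen in *Elovl3*. *Elovl6*, which turns palmitate into stearate, had 322, 260 and 385 CPM in WT and 199.9, 261 and 382 CPM in *Themis*-KO livers. The groups overlapped, with *Themis*-KO 1 below every WT liver and the other two *Themis*-KO livers inside the WT range, and with a log2 fold change of −0.20 ± 0.24 SE (95% interval −0.75 to 0.36, edgeR adjusted p = 0.600).

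**Figure D2:**
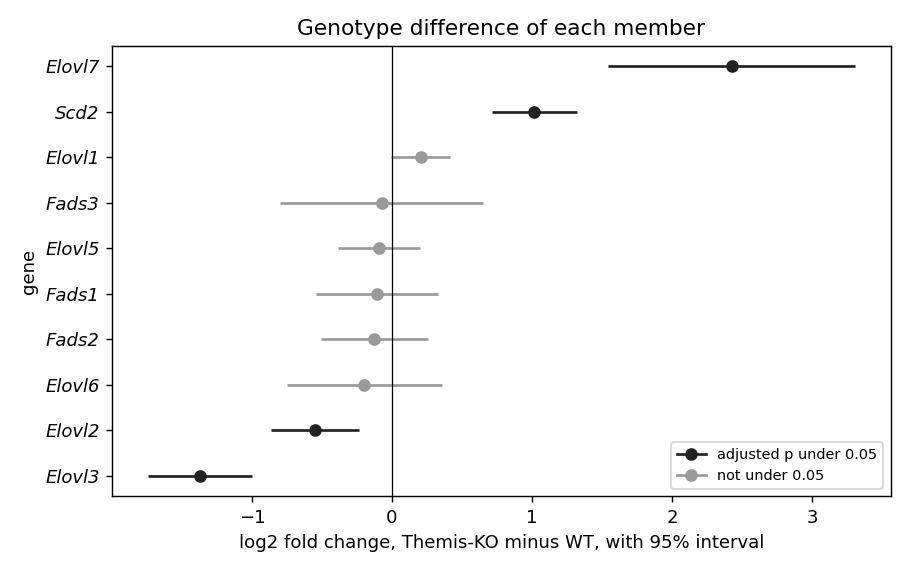
Log2 fold change of each member (Themis-KO minus WT, points) with its 95% interval from edgeR (bars), ordered by size; dark marks have an adjusted p under 0.05. *Elovl3* lies at −1.37 and *Elovl7* at 2.43, and the intervals of *Elovl1*, *Elovl5*, *Elovl6*, *Fads1*, *Fads2* and *Fads3* cross 0.

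A call in 1 elongase and none in another does not show that they differ, so *Elovl3* was set against each other elongase within the same liver. Such a log2 ratio hardly depends on how libraries were scaled, apart from the small prior count added to each value. Against *Elovl6*, its relative at the histidine box, the ratio was −2.07, −1.97 and −3.00 in WT and −3.03, −3.39 and −3.95 in *Themis*-KO livers. WT 3 and *Themis*-KO 1 were nearly level, and the group means differed by −1.11. Against *Elovl5* the ratio was −3.87, −4.18 and −4.74 in WT and −5.42, −5.35 and −5.74 in *Themis*-KO livers, a difference of −1.24 with clear space between the groups. Against *Elovl2* the difference was −0.79, the smallest of the 5, and WT 3 (−3.730) and *Themis*-KO 2 (−3.732) were separated by almost nothing. Against *Elovl1* it was −1.54. By CPM, which is not scaled by transcript length, *Elovl3* was above *Elovl1* in every WT liver and below it in every *Themis*-KO liver. Per kilobase of exon this turn did not hold in *Themis*-KO 3, with *Elovl3* at 12.5 and *Elovl1* at 11.5 CPM. Against *Elovl7* the difference of the log2 ratio was −3.76, to which the rise of *Elovl7* contributed.

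In all 5 pairs the ratio was lower in every *Themis*-KO liver than in any WT liver. The exact two-sided permutation test gave p = 0.1 for each pair, the smallest that 3 against 3 livers allow, and 0.1 after adjustment over the 5 pairs. The same ratio of *Elovl3* to a gene was lower without overlap for 93.2% of all genes, so the separation is a property of *Elovl3* against most of the transcriptome and is not particular to elongases. Against the mean log2 CPM of the other 5 elongases, *Elovl3* stood at −0.12, −0.40 and −1.19 in WT and at −2.24, −2.26 and −2.29 in *Themis*-KO livers. The difference of the means was −1.69, of which the fall of *Elovl3* made the larger part and a rise of 0.348 in the mean of the others the rest. That rise was carried by the low-count *Elovl7*, with a log2 fold change of 2.43. The others were at 0.20 (*Elovl1*), −0.55 (*Elovl2*), −0.094 (*Elovl5*) and −0.20 (*Elovl6*). In every liver *Elovl6* was the median of these 5, so the contrast with the median (−1.11) repeats the *Elovl6* pair.

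**Figure D3:**
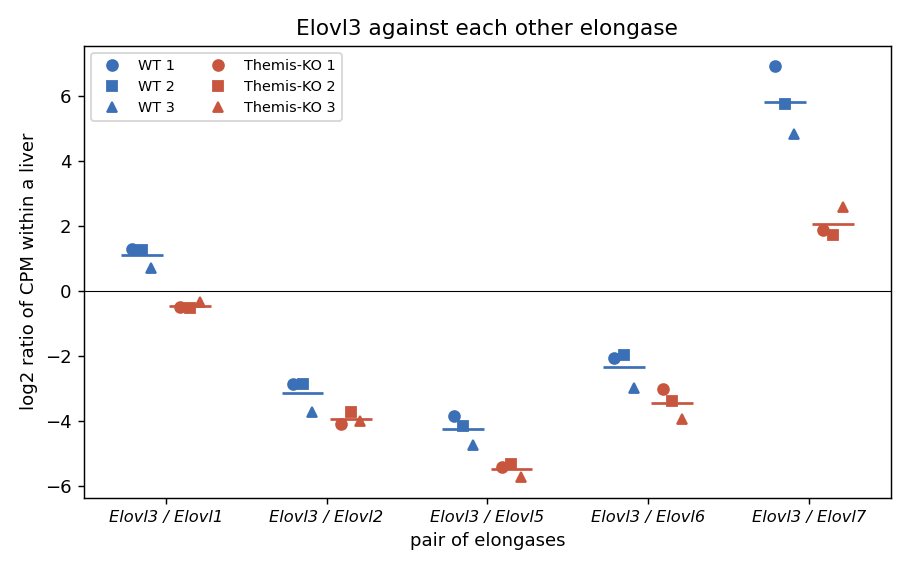
Log2 ratio of the CPM of Elovl3 to that of each other elongase within a liver (y axis), WT in blue and Themis-KO in red, with a bar at each group mean. In each of the 5 pairs the Themis-KO points lie below the WT points, by −0.79 (*Elovl2*) to −3.76 (*Elovl7*) on average, and WT 3 is the lowest WT point in each pair.

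Per kilobase of exon, *Elovl5* dominated the elongase transcripts, with 56.7 to 62.3% of their summed CPM per kb in WT and 64.4 to 66.9% in *Themis*-KO livers. *Elovl3* made up 6.93, 6.13 and 3.90% in WT and 2.68, 2.85 and 2.23% in *Themis*-KO livers. *Elovl7* stayed below 0.5% in every liver despite its rise, so that by level it remained the least abundant member in both groups (0.276 ± 0.133 and 1.502 ± 0.446 CPM per kb, SD, n = 3 each). At the other end of the order stood *Fads2* with 508 ± 67.7 and 466 ± 91.9 CPM per kb. *Elovl3* was sixth of the 10 members in both groups, but in *Themis*-KO livers its 12.4 CPM per kb no longer differed from *Elovl1* beyond their spread.

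Among the desaturases the family split in the same way, with 1 called member and 3 that overlapped. *Scd2* (ENSMUSG00000025203, chr19:44293674-44306864, forward strand) makes monounsaturated fatty acids and is the stearoyl-CoA desaturase known best from brain and newborn tissue. It had 11.4, 13.9 and 15.5 CPM in WT and 28.3, 25.3 and 29.3 CPM in *Themis*-KO livers. The groups were far apart relative to their spread, and the mean rose 2.02-fold (log2 fold change 1.02 ± 0.13 SE, 95% interval 0.72 to 1.32, edgeR adjusted p = 0.0123). The call was lost without WT 1, WT 2 or *Themis*-KO 1, at adjusted p-values up to 0.0593.

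*Scd1*, the main stearoyl-CoA desaturase of liver and the neighbour of *Scd2* on chromosome 19, had 22453 to 34411 CPM over the 6 livers, and its log2 fold change of −0.23 ± 0.16 SE was not called (edgeR adjusted p = 0.358). Within a liver, the log2 ratio of *Scd2* to *Scd1* was −11.3, −11.0 and −11.1 in WT and −9.79, −9.79 and −10.0 in *Themis*-KO livers, a difference of 1.26 (exact permutation p = 0.1, the smallest possible). The genes share some sequence: 97 of the 5461 stretches of 75 bases in *Scd2* transcripts (1.78%) also occur in *Scd1*, *Scd3* or *Scd4*. The reads were paired and longer than 75 bases, so this is not the share of reads that could be exchanged. What share of the *Scd2* counts comes from its relatives was not tested.

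The 3 Fads genes lie next to each other on chromosome 19 and code for the desaturases of polyunsaturated fatty acids (*Fads1*, *Fads2*) and of sphingoid bases (*Fads3*). *Fads1* had 493, 505 and 733 CPM in WT and 530, 443 and 634 CPM in *Themis*-KO livers. *Fads2*, which opens the polyunsaturated pathway, had 1495, 1601 and 1923 CPM in WT and 1475, 1265 and 1862 CPM in *Themis*-KO livers. *Fads3* had 23.6, 33.5 and 35.8 CPM in WT and 22.9, 19.7 and 45.9 CPM in *Themis*-KO livers. In each of them the groups overlapped, with replicate 3 of either group at the top. The log2 fold changes were −0.11 (95% interval −0.54 to 0.33, adjusted p = 0.726) for *Fads1*, −0.12 (−0.50 to 0.25, adjusted p = 0.633) for *Fads2* and −0.072 (−0.80 to 0.65, adjusted p = 0.891) for *Fads3* in edgeR. The interval of *Fads3* is wide enough to include a change of 1.5-fold either way. The ratio of *Fads1* to *Fads2* within a liver, the measure of the pathway's second against its first desaturase, differed by 0.037 between the groups (exact permutation p = 0.7).

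A pattern that did not follow genotype ran through 5 of the 6 members that were not called, *Elovl1* being the exception. WT 3 and *Themis*-KO 3 were the 2 highest of the 6 livers for *Elovl5*, *Elovl6*, *Fads1*, *Fads2* and *Fads3*. They were also the 2 highest for 6 of 7 genes of de novo lipogenesis (*Acly*, *Acss2*, *Acaca*, *Acacb*, *Fasn* and *Me1*) and for *Scd1*, against 4.08% of all genes. This count was made after the values had been seen. *Fasn*, the synthase that makes palmitate, had 847, 758 and 915 CPM in WT and 668, 752 and 1746 CPM in *Themis*-KO livers, so that *Themis*-KO 3 stood far above all others. *Thrsp*, a lipogenic cofactor, had 828, 863 and 751 CPM in WT and 243, 217 and 892 CPM in *Themis*-KO livers, and here 1 *Themis*-KO liver lay with the WT group. *Elovl1*, *Elovl3*, *Elovl2*, *Scd2* and *Elovl7* did not share this order.

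**Figure D4:**
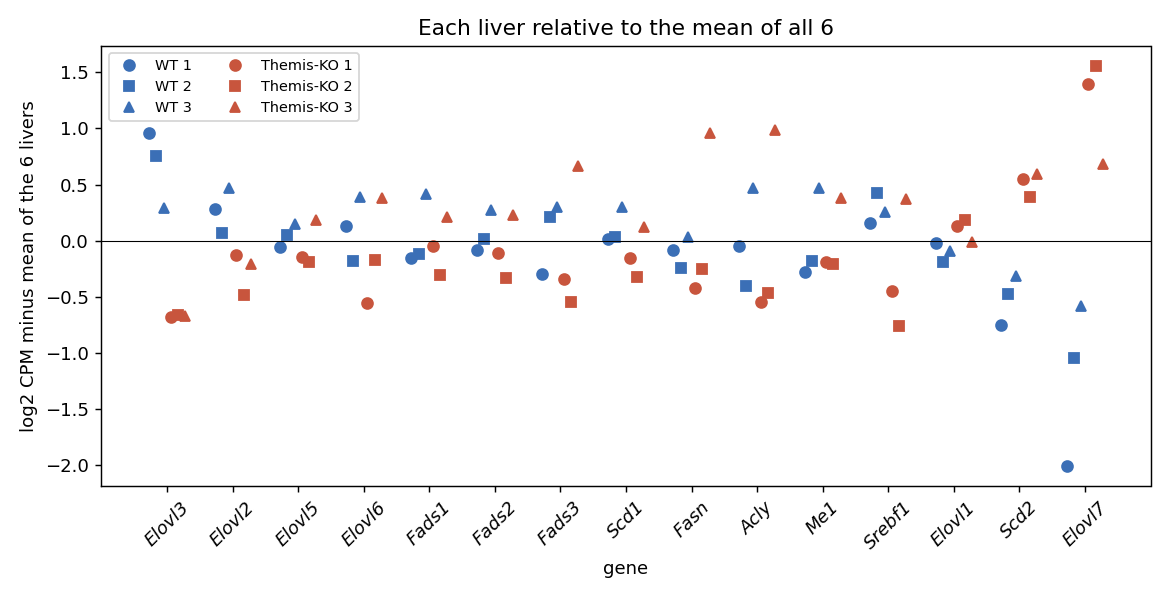
Log2 CPM of each liver minus the mean of the 6 livers (y axis) for the 10 members and for *Scd1*, *Fasn*, *Acly*, *Me1* and *Srebf1*, WT in blue and Themis-KO in red, symbols by replicate number. Triangles of both colours (replicate 3) are the 2 highest points for *Elovl5*, *Elovl6* and the 3 Fads genes, whereas colours separate for *Elovl3*, *Elovl2*, *Elovl1*, *Scd2* and *Elovl7*.

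The genes that work with the members gave few calls. For scale, 4449 of all 14496 genes tested had an unadjusted edgeR p under 0.05, and DESeq2 called 2357. Without *Themis*-KO 3, edgeR called 4267 of 14806 genes. The list counts below are to be read against these. Of 7 de novo lipogenesis genes tested, edgeR called 0, with 0 at an unadjusted p under 0.05 and 0 by DESeq2, and a median log2 fold change of −0.022. Of 6 partners that finish the elongation cycle 0 were called (1 at an unadjusted p under 0.05 and 0 by DESeq2), with *Hsd17b12*, the ketoreductase, at −0.0038 ± 0.082 SE. Of the 3 genes of the cytochrome b5 electron supply 0 were called (0 unadjusted and 0 by DESeq2), with a median of −0.26. Among other elongases and desaturases *Scd1*, *Fads6* and *Degs1* were tested and 0 called (1 unadjusted and 1 by DESeq2), while *Elovl4*, *Scd3*, *Scd4* and *Degs2* were at or near 0 counts. *Fads6* had 165, 172 and 158 CPM in WT and 112, 106 and 145 CPM in *Themis*-KO livers, without overlap (log2 fold change −0.45 ± 0.13 SE, edgeR adjusted p = 0.0628). Without *Themis*-KO 3, 2 of the lipogenesis genes and 1 gene of each of the other 3 lists were called.

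Fatty acid activation showed a single fall. *Acsl1*, the main hepatic acyl-CoA synthetase, was the 1 of 4 synthetases called and fell from 1242, 1305 and 1154 to 747, 619 and 683 CPM (log2 fold change −0.85 ± 0.11 SE, edgeR adjusted p = 0.0115). Of 14 regulators of lipogenesis 2 were called, both lower: *Ppara*, the fatty acid sensor (−0.52, adjusted p = 0.0345), and its partner *Rxra* (−0.42, adjusted p = 0.0351). *Srebf1*, which encodes SREBP-1c, had 416, 503 and 446 CPM in WT and 273, 221 and 482 CPM in *Themis*-KO livers, overlapped through *Themis*-KO 3 and was not called (edgeR adjusted p = 0.249). Of 4 ceramide synthases, which use the very long chains made by elongases, *Cers5* was called and higher (0.70 ± 0.16 SE, adjusted p = 0.0386). These calls did not hold in every fit without 1 liver. *Acsl1* was not called without WT 1, *Themis*-KO 1 or *Themis*-KO 2, where calls over all genes fell from 1321 to 44, 20 and 68. Of the regulators and ceramide synthases 0 were called in any fit without 1 liver except that without *Themis*-KO 3, which called 6 of 14 and 2 of 4.

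*Elovl3* is known as a gene expressed more in male than in female liver, and all livers compared here were male by the marker counts given above. Of 13 male-biased liver genes, edgeR called 9, all lower in *Themis*-KO livers, with a median log2 fold change of −1.55 over the 13. They were *Hsd3b5*, *Cyp4a12a*, *Cyp4a12b*, *Cyp2d9*, *Cyp7b1*, *Slco1a1*, *Mup1*, *Mup7* and *C6*, with log2 fold changes from −0.73 (*C6*) to −7.13 ± 1.14 SE (*Hsd3b5*) (the Mup genes are near-identical copies whose reads can be shared). *Hsd3b5* had 660, 54 and 320 counts in WT and only 3, 3 and 1 in *Themis*-KO livers. *Selenbp2* (−1.55) and *Ugt2b38* (−1.16) were lower but not called. The most abundant of the 13, *Mup20* (0.11), and *Gstp1* (0.091) were positive and not called. Without *Themis*-KO 1, 1 of the 13 was called, and with the mitochondrial split as a covariate 0. Of 4 female-biased genes tested, edgeR called 0, with 1 at an unadjusted p under 0.05 and 1 by DESeq2. Of 16 circadian clock genes it also called 0, with 4 unadjusted and 2 by DESeq2, and a median of −0.18. The counts over all 14496 genes were 4449 unadjusted and 2357 by DESeq2. Without *Themis*-KO 3 it called 8 of the 16 clock genes, against 4267 of 14806 genes.

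Over the 6 livers, the genes whose centred log2 CPM followed *Elovl3* most closely were *Cyp2c50*, a cytochrome P450, *C4a*, a complement gene with a near-identical copy, *Hpd*, an enzyme of tyrosine breakdown, *Ces2a*, a carboxylesterase, and the predicted gene *Gm45244*. Their root mean square difference from *Elovl3* was 0.103 to 0.154 log2 units among 13042 genes ranked, a description that rests on 6 livers in 2 groups. The nearest member was *Elovl2*, at 0.502 and rank 1010, and *Elovl7* at rank 13007 was among the least alike. By position, 5 of the 10 members lie on chromosome 19 and none on chromosome 10 with *Themis*. Of the 4 tested protein-coding neighbours of *Elovl3* within 100 kb, 0 were called. Among the neighbours of the other members *Nedd9* beside *Elovl2* (log2 fold change 0.91, edgeR adjusted p = 0.0383) and *Cdc20* beside *Elovl1* (1.01, adjusted p = 0.0426) were called, both higher in *Themis*-KO livers.

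Several sets of cell type markers also differed between the groups. In bulk liver, fewer cells of a type and less RNA per cell cannot be told apart. The summed CPM of 12 hepatocyte markers was 70574 to 77286 in WT and 55827 to 59289 in *Themis*-KO livers, without overlap, and 4 of the 12 were called, all lower. The sum of 11 stellate cell markers was 489 to 550 against 738 to 783 CPM and that of 9 cholangiocyte markers 155 to 194 against 389 to 619 CPM, each higher in *Themis*-KO livers without overlap, with 5 of 11 and 2 of 8 tested genes called. Most of the cholangiocyte sum was *Spp1*, with 137, 180 and 163 CPM in WT and 571, 367 and 366 CPM in *Themis*-KO livers. Some of the other tested cholangiocyte markers overlapped between the groups, and others were higher in *Themis*-KO livers without overlap. The sum of 12 macrophage markers overlapped (382 to 669 against 629 to 828 CPM), and 11 of the 12 genes had a positive log2 fold change. Of the 12, edgeR called 1, *Cd68*, with 8 at an unadjusted p under 0.05 and 8 by DESeq2, 7 without WT 3 and 6 without *Themis*-KO 3. Over all genes these counts were 4449 and 2357 of 14496, 850 of 14830 without WT 3 and 4267 of 14806 without *Themis*-KO 3. Endothelial marker sums were 281 to 306 and 315 to 351 CPM with *Lyve1* called. T cell, B cell and neutrophil sums stayed below 24 CPM in every liver and overlapped. Of these, *Cd4* was called and lower, and edgeR called 0 of 5 B cell genes (0 unadjusted and 0 by DESeq2) and 0 of 4 neutrophil genes (4 unadjusted and 1 by DESeq2, and 4 called without *Themis*-KO 3). No marker gene was at 0 in all livers. Without *Themis*-KO 1, 0 hepatocyte, 0 stellate cell and 1 cholangiocyte gene were called. The part of these shifts in the fall of *Elovl3* and *Elovl2* and in the rise of *Scd2* and *Elovl7* was not tested.

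**Figure D5:**
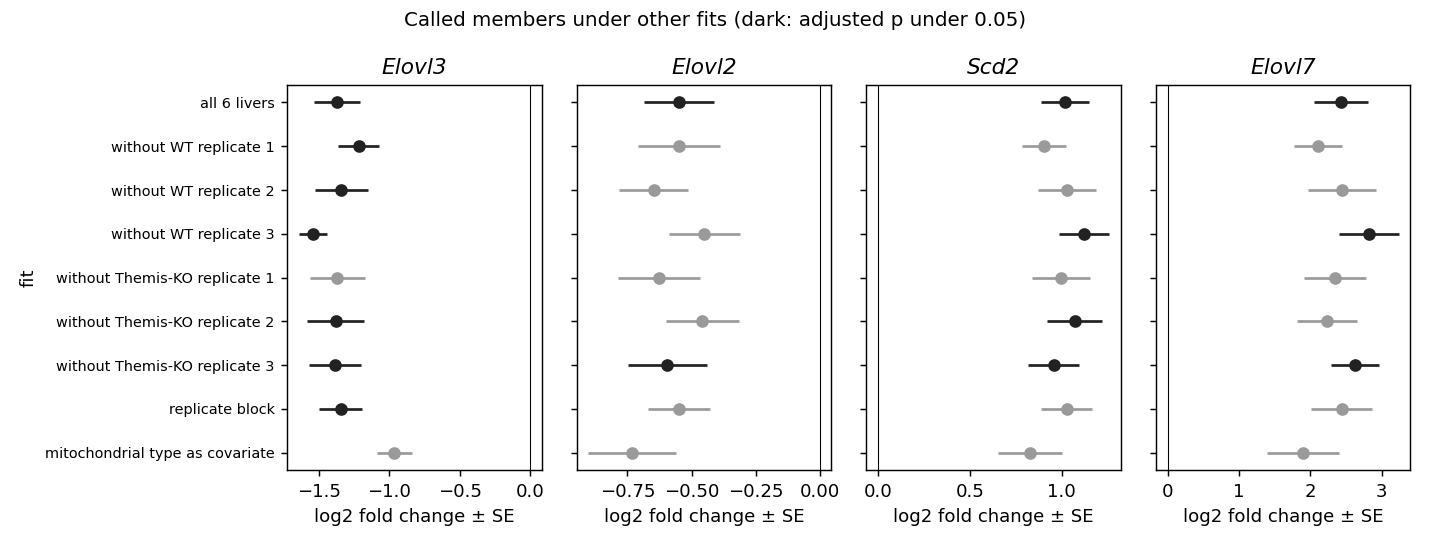
Log2 fold change ± SE (x axis) of the 4 called members with all 6 livers, with each liver left out, with a replicate block and with the mitochondrial split as covariate; dark marks have an adjusted p under 0.05. All estimates keep their side of 0, and *Elovl3* is called in 5 of the 6 fits that leave out a liver, *Scd2* in 3, *Elovl7* in 2 and *Elovl2* in 1.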

How the data were processed

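Poly(A) RNA of 3 WT and 3 *Themis*-KO livers was sequenced from NEBNext libraries. Per the labels' processing notes, the authors trimmed reads with cutadapt 2.3, aligned them to GRCm38 with STAR 2.7.8a and deposited 1 table of RSEM 1.3.3 expected counts per gene, which hold whole numbers. Total counts were 20679642 to 25649767 per liver. *Elovl7*, the member with the lowest counts, had the largest SE of its log2 fold change (0.38). Elsewhere the SE did not follow the counts, with 0.13 for *Scd2* and 0.16 for the far more abundant *Fads2*.

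Genes were filtered with filterByExpr (14496 of 25403 kept), scaled by TMM and tested with the quasi-likelihood test of edgeR 4.0.16 in R 4.3.3, with Benjamini-Hochberg adjustment over all genes. Log2 ratios used a prior count of 2. DESeq2 1.42.0, other scalings, filters and prior counts, a replicate block, the mitochondrial split and the omission of each liver were alternatives. Simulated counts with 200 changed genes were used to check the fit. Over 14324 genes, edgeR recovered 99 of 100 genes changed by 1.5 log2 units, and 10 of its 209 calls were unchanged genes. The simulation gave every gene the same dispersion and had no differences between livers of a group beyond it. It therefore does not measure recovery in these livers. Positions, exon lengths and coding sequences came from GENCODE M21 (GRCm38). Genes named are the 10 members, *Themis*, *mt-Nd3* and *Gm28438*, list genes with an adjusted p under 0.05 or otherwise those of highest level, and the 5 genes most like *Elovl3*. *Ddx3y*, *Xist*, *Fads6*, *Srebf1*, the lipogenic genes, the male-biased genes not called and members of lists near 0 counts were added after their values were seen. Members and lists were chosen with earlier results of these data known. Labels give each library as a separate sample, and p-values measure the spread between these samples. The result of 1 further gene list is not reported here.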

Additional observations from a re-analysis of the deposited data

How the results depend on the processing

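The 4 called members kept their direction under all alternatives, but their calls did not hold in every fit. The number of members called was 1 with a replicate block, 0 with the mitochondrial split as a covariate and 0 to 4 when 1 liver was left out, being 0 without *Themis*-KO 1 and 4 without *Themis*-KO 3. *Elovl3* had a log2 fold change of −0.964 (adjusted p = 0.123) with the mitochondrial split and −1.37 (adjusted p = 0.0540) without *Themis*-KO 1, with −1.54 to −1.22 over all fits without 1 liver, and it was called in 7 of 8 other alternatives. Against the mean of the other elongases its difference was −2.0003 to −1.46 without 1 liver. Against their median, which was *Elovl6* in every liver, it was −1.11, the value of that pair. *Elovl2* was not called with upper quartile scaling (adjusted p = 0.0511) or total counts alone (0.0820). Calls over the lists of partner and marker genes, 28 as reported, were 45 without a filter, 50 with DESeq2, 6 with the block, 0 with the mitochondrial split and 2 to 60 without 1 liver. Over all genes, 1321 calls became 2357 with DESeq2, 2179 without a filter, 62 with the block, 3 with the mitochondrial split and 20 to 4267 without 1 liver. Genes that were not called turned sign: with total counts alone, which moved the median of all genes to 0.147, *Elovl5* was at 0.039, *Fads1* at 0.020, *Fads2* at 0.0052 and *Fads3* at 0.053. Without 1 liver *Fads1* ranged from −0.263 to 0.099, above 0 without WT 3 or *Themis*-KO 2 (0.0051), and *Fads3* from −0.555 to 0.144, above 0 without WT 3 (0.043), *Themis*-KO 1 (0.078) or *Themis*-KO 2. The replicate numbers share no stated origin, and deviations of same-numbered livers correlated at −0.24 to 0.00028. With the block, *Elovl3* had a log2 fold change of −1.35 (edgeR adjusted p = 0.0435). *Elovl2* was at −0.55 (adjusted p = 0.0917), *Elovl7* at 2.44 (adjusted p = 0.0689) and *Scd2* at 1.03 (adjusted p = 0.0501), and these were not called. Fits without 1 liver also rest on fewer livers. The cause of the changes between fits was not tested.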
